A study of Mus musculus with 2 samples.

Results

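The chemokine ligand genes Ccl1, Ccl3, Ccl4, Ccl5, Ccl6, Ccl9, Xcl1, Cxcl2, Cxcl10 and Cxcl16 were followed in RNA of ILC2 progenitors, the cells of bone marrow that give rise to group 2 innate lymphoid cells, a tissue source of type 2 cytokines. They were taken by gene symbol and are 10 of the 27179 genes with a row in each library. The study had 1 group, C57BL/6 mice of 8 weeks of age, from which progenitors were isolated from bone marrow by flow cytometry. RNA from 2 pools of cells, each from 8 mice, was sequenced and is called pool 1 and pool 2 here. No other group was analysed here, so levels are compared between genes and between the pools. The ligands had been grouped as chemokines made by progenitors, but RNA of a sorted pool does not show which cells made it. Of the 10 genes, 6 reached 1 RPKM (read count scaled by gene length and library depth) in both pools, Cxcl2 and Ccl4 did so in pool 1 alone, and Ccl3 and Cxcl16 stayed below it in both. Of all genes, 40.5% reached 1 RPKM in both pools.

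Chemokines are small secreted proteins that guide migrating cells along gradients by binding receptors coupled to G proteins. Families are named from the spacing of the first cysteines of the mature protein, which lie next to each other in CC ligands, are parted by a single residue in CXC ligands, and are reduced to a lone cysteine in the C ligand Xcl1. Many CC and CXC genes lie in clusters that arose by duplication, and most receptors of inflammatory chemokines bind several ligands. In bone marrow, chemokines direct the retention, release and positioning of leukocytes.

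The 10 genes comprise 6 CC ligands, 3 CXC ligands and the C ligand. The stretch of coding sequence that holds the family signature was read for 9 of them from GENCODE M21 transcripts (GRCm38), and follows with the cysteine codons of the family signature in capitals.
Ccl1: gtctccaatagcTGCTGCttgaacaccttg
Ccl4: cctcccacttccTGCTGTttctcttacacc
Ccl5: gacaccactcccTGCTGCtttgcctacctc
Ccl6: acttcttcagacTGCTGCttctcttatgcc
Ccl9: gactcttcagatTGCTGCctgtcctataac
Xcl1: gaagagagtagcTGTgtgaacttacaa
Cxcl2: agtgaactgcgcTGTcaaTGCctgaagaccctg
Cxcl10: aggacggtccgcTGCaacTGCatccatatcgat
Cxcl16: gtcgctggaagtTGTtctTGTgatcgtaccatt
The 5 CC genes shown carry the paired codons, and the 3 CXC genes carry a single codon between them. Coding sequences held 91 to 122 codons in 8 of these genes and 246 codons in Cxcl16, which encodes a chemokine domain on a membrane-spanning stalk. The most similar coding sequences were those of Ccl3 and Ccl4, with 66.67% of aligned bases identical, followed by Ccl6 and Ccl9 with 64.61%.

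The library totals behind the RPKM scaling were inferred from the steps between RPKM values, at 20216146 reads for pool 1 and 19834586 for pool 2. The column heading in each deposited table carried the code of the other sample, and 0 of 2 headings matched. Tables were assigned to the sample under which they were deposited, so the names of the pools would be exchanged throughout if the headings, not the deposits, were correct. All 12 ILC2 identity genes reached 1 RPKM in both pools and summed to 4069 RPKM in pool 1 and 4172 in pool 2, led by Ly6a (mean 1160.4 RPKM ± 224 SD, n = 2) and Thy1 (534 ± 33.7). Of the 12, 5 were higher in pool 1 and 7 in pool 2. Only Id2 was 2-fold apart, at 710 RPKM in pool 1 and 287 RPKM in pool 2. Markers of other cells were present at unequal sums: 12 neutrophil genes came to 1065 RPKM in pool 1 and 2470 RPKM in pool 2, while 8 eosinophil genes came to 59.7 and 659. The 10 T cell genes summed to 536 and 723 RPKM with Cd8a at 0, and the 8 B and plasma cell genes to 654 and 452. In that list Ighm and Igkc were higher in pool 1 and the other 6 genes were higher in pool 2. The 8 stromal and endothelial genes summed to 89.5 RPKM in pool 1 and 29.4 RPKM in pool 2, led by Pecam1 (23.8 ± 3.75) and Col1a1, at 40.5 RPKM in pool 1 and 0.889 RPKM in pool 2. By direction, 4 of the 8 were higher in pool 1 and 4, Pecam1 among them, were higher in pool 2. In pool 1 the 15 immediate early and stress genes summed to 7685 RPKM, against 746 in pool 2. In RNA from a pooled sort, fewer cells of a type and less RNA per cell cannot be told apart.

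Ccl5 RNA exceeded that of every other chemokine ligand in both pools. The 41 chemokine ligand genes with a row in the tables summed to 183.9 RPKM in pool 1 and 167 RPKM in pool 2. The 10 ligands under study made up 96.1% and 95.6% of these sums, and Ccl5 alone 74.5% and 79.8%. Without Ccl5, the other 9 summed to 39.7 RPKM in pool 1 and 26.4 RPKM in pool 2. The median level of the 10 genes was 0.92 on the log2(RPKM + 0.1) scale, beside 2.31 over the 17233 genes above 0 in either pool and -2.85 over the 31 other ligands. The 10 were chosen with earlier results of these data known, so their share and their median may reflect that choice.

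**Figure D1:**
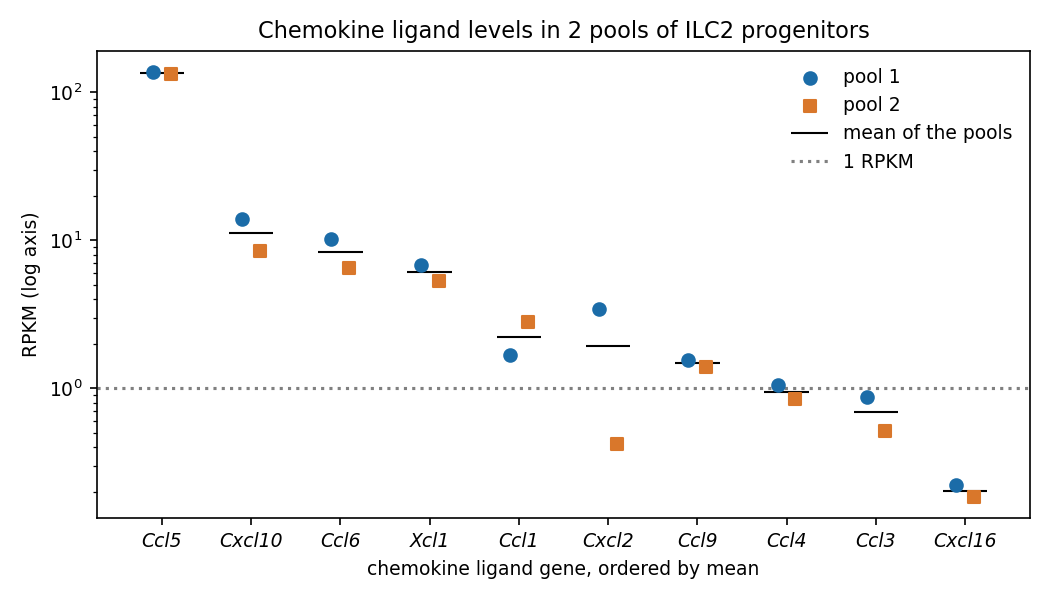
RPKM of the 10 chemokine ligands on a log axis, with each point a pool, a line at the mean of both and a dotted line at 1 RPKM. Ccl5 lies above 130 RPKM in both pools, all others lie below 15 RPKM, and the pools of Cxcl2 lie farthest apart.

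In order of mean level, Ccl5 was followed by Cxcl10, Ccl6, Xcl1, Ccl1, Cxcl2, Ccl9, Ccl4, Ccl3 and Cxcl16. Of the 9 neighbouring pairs in this order, 4 did not overlap between the pools: Ccl5 over Cxcl10, Xcl1 over Ccl1, Ccl9 over Ccl4 and Ccl3 over Cxcl16. The means of these pairs differed 12.1-fold, 2.72-fold, 1.56-fold and 3.40-fold. The ranges of the other 5 neighbouring pairs overlapped between the pools. Within each pool Cxcl10 exceeded Ccl6, Ccl6 exceeded Xcl1 and Ccl4 exceeded Ccl3, while the pairs that hold Cxcl2 changed order. The order within pairs was not tested against counting error. Cxcl2 ranked above Ccl1, Ccl9, Ccl4 and Ccl3 in pool 1 and below all of them in pool 2, and the order of the other 9 was the same in both.

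Ccl5 (Entrez 20304, mm10 chr11:83525778-83530518), a ligand of Ccr1 and Ccr3 that T cells and NK cells also make, was at 137 RPKM in pool 1 and 133 RPKM in pool 2. The values rest on an estimated 1474 and 1408 reads, and their ratio, pool 2 over pool 1, was 0.974 (95% exact counting interval 0.904 to 1.05). Counting error covers the difference between the pools. Of the expressed genes, 96.8% lay at or below its mean of 135 RPKM ± 2.56. The 10 NK cell and ILC1 markers summed to 31.3 RPKM in pool 1 and 56.2 RPKM in pool 2, led by Nkg7 (22.9 ± 10.6) and Prf1 (7.09 ± 0.422). The T cell markers, also higher in sum in pool 2, were led by Lat (229.9 ± 12.3) and Cd3g (149.9 ± 64.3). The part of either list in the Ccl5 level was not tested. Counting intervals cover counting error only, not differences between mice.

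Ccl6 (Entrez 20305, chr11:83587886-83593087) and Ccl9 (Entrez 20308, chr11:83572917-83578636) are related rodent CC ligands that act on Ccr1 and are well known from myeloid cells. Ccl6 was at 10.2 RPKM in pool 1 and 6.46 RPKM in pool 2, from an estimated 296 and 184 reads. It was 1.58-fold higher in pool 1 (counting interval 1.31 to 1.91), and fell by 0.65 on the log2 scale from pool 1 to pool 2. The interval widened to 1.08 to 2.33 with the smallest read numbers that the RPKM values allow. Ccl9 was at 1.56 RPKM in pool 1 and 1.39 RPKM in pool 2, a ratio of 0.890 (0.655 to 1.21) that counting error covers. Mean Ccl6 was 8.33 RPKM ± 2.64 and mean Ccl9 1.48 ± 0.121, and their ranges did not overlap. Markers of monocytes and macrophages, 12 genes, summed to 125 RPKM in pool 1 and 216 in pool 2, with 6 at 1 RPKM in both, and neutrophil markers were also higher in pool 2, led by S100a9 (583 ± 366) and S100a8 (521 ± 330.0). The lead gene of the monocyte list was Lyz2 (153 ± 64.3), which neutrophils share, followed by C1qa at 5.59 ± 0.206. Without Lyz2, the other 11 genes of that list summed to 18.0 RPKM in pool 1 and 17.9 RPKM in pool 2. The part of either list in the Ccl6 level was not tested. Of 2957 stretches of 50 bases in the Ccl9 transcript, 109 also occur in transcripts of other genes, and none of the 1391 in Ccl6 do.

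Ccl3 (Entrez 20302, chr11:83647843-83649378) and Ccl4 (Entrez 20303, chr11:83648624-83664683), which encode macrophage inflammatory proteins, were near the limit of what the libraries resolve. Ccl4 was at 1.05 RPKM in pool 1 and 0.840 RPKM in pool 2, from 14 and 11 reads. Ccl3 was at 0.877 RPKM in pool 1 and 0.511 RPKM in pool 2, from 14 and 8 reads. Their ratios, pool 2 over pool 1, were 0.801 (0.329 to 1.90) for Ccl4 and 0.582 (0.212 to 1.49) for Ccl3, so no difference between the pools was detectable at this depth. The RefSeq spans of these genes overlap on chromosome 11. Their GENCODE exons do not, and RefSeq exons were not compared.

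Ccl1 (Entrez 20290, chr11:82176666-82179812), a ligand of Ccr8 made by activated lymphocytes and mast cells, was the only one of the 10 that was higher in pool 2. It was at 1.67 RPKM in pool 1 and 2.80 RPKM in pool 2, from 17 and 28 reads. The ratio of 1.68 had a counting interval of 0.887 to 3.27, which includes no difference. Mast cell and basophil markers, 8 genes, summed to 112 RPKM in pool 1 and 107 in pool 2, with Cma1 and Tpsb2, which mark mature mast cells, at 0 in both. The highest of that list were Cpa3 (43.8 ± 9.02) and Prss34 (37.8 ± 6.72), and their part in the Ccl1 level was not tested.

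Xcl1 (Entrez 16963, chr1:164931644-164935522), which attracts cross-presenting dendritic cells through Xcr1, was at 6.80 RPKM in pool 1 and 5.32 RPKM in pool 2. The ratio of 0.783 (0.537 to 1.14) rests on 69 and 53 reads and includes no difference. Its exons share 98 bases with Gm20743 on the opposite strand, a gene at 0 RPKM in both pools. Because the strand setting of the counting is not given in the sources used here, reads of such overlapping genes cannot be told apart. The dendritic cell list, on which the receptor Xcr1 itself stands, summed to 141 RPKM in pool 1 and 274 in pool 2, led by H2-Aa (118 ± 58.2) and H2-Ab1 (83.2 ± 35.0), antigen presentation genes that other cells also express.

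Cxcl10 (Entrez 15945, chr5:92346638-92348889), an interferon-induced ligand of Cxcr3, was the highest CXC ligand. It was at 13.9 RPKM in pool 1 and 8.47 RPKM in pool 2, from 309 and 185 reads. Pool 1 was 1.64-fold higher (1.36 to 1.98), beyond counting error. Cxcl9, the neighbouring ligand of the same receptor, was at 0.409 RPKM in pool 1 and 0.139 RPKM in pool 2, and Cxcl11, annotated as a transcribed pseudogene, at 0.0308 and 0. The Cxcl10 exons share 133 bases with Art3 on the opposite strand, whose own values were 0.190 RPKM in pool 1 and 0.226 in pool 2.

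Cxcl16 (Entrez 66102, chr11:70454389-70459984), the membrane-bound ligand of Cxcr6, was the lowest of the 10. It was at 0.222 RPKM in pool 1 and 0.185 RPKM in pool 2, from 11 and 9 reads, a ratio of 0.834 (0.305 to 2.21). Its exons share 552 bases with Zmynd15 on the opposite strand, which was at 0.0883 RPKM in pool 1 and 0 RPKM in pool 2. Adam10 and Adam17, the proteases that shed Cxcl16 from the membrane, were at 41.5 and 22.8 RPKM in pool 1 and at 48.1 and 25.6 RPKM in pool 2. The RNA of both proteases exceeded that of the ligand in each pool.

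Cxcl2 (Entrez 20310, chr5:90903899-90905938), a neutrophil attractant that binds Cxcr2 and is made within a short time of activation, differed more between the pools than any other of the 10. It was at 3.43 RPKM in pool 1 and 0.419 RPKM in pool 2, from an estimated 75 and 9 reads. Pool 1 was 8.18-fold higher by RPKM, with a counting interval of 4.08 to 18.6, and the interval widened to 2.49 to 42.3 with the smallest read numbers that the RPKM values allow. On the log2(RPKM + 0.1) scale, which understates differences of low genes, the value fell by 2.76 from pool 1 to pool 2. The adjacent gene Cxcl1, another Cxcr2 ligand, stood at 0.673 RPKM in pool 1 from 13 reads and at 0 in pool 2. A count of 0 in pool 2 allows up to 0.158 RPKM (3 reads), and the exact counting interval of the ratio starts at 2.99-fold higher in pool 1. Cxcl3, a near relative in sequence, was at 0.391 RPKM in pool 1 and 0.498 RPKM in pool 2, and 61 of 1060 stretches of 50 bases in Cxcl2 also occur in Cxcl3, which limits how reads of these genes can be assigned.

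One library a side gives no p-value between the pools, so the ligands were read against all genes by fold. Of the 10, 7 had a mean of 1 RPKM or more, and 1 of these, Cxcl2, was 2-fold apart. Among all 11394 genes with such a mean, 4.14% were 2-fold apart, 1.47% higher in pool 1 and 2.68% higher in pool 2. At 1.5-fold, 4 of the 7 were apart (Cxcl10, Ccl6, Ccl1 and Cxcl2), against 10.8% of all genes. Low genes scatter more: among genes with a mean of 1 to 15 RPKM, where 6 of the 7 lie, 16.4% were 1.5-fold apart and 6.34% 2-fold apart. Counting intervals left out a ratio of 1 for 3 of the 7, Cxcl10, Ccl6 and Cxcl2, against 55.6% of all genes with an interval. Intervals narrow as reads rise, and that share includes genes with far more reads. A share for genes at the level of the ligands was not computed, so the shares cannot be ranked.

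**Figure D2:**
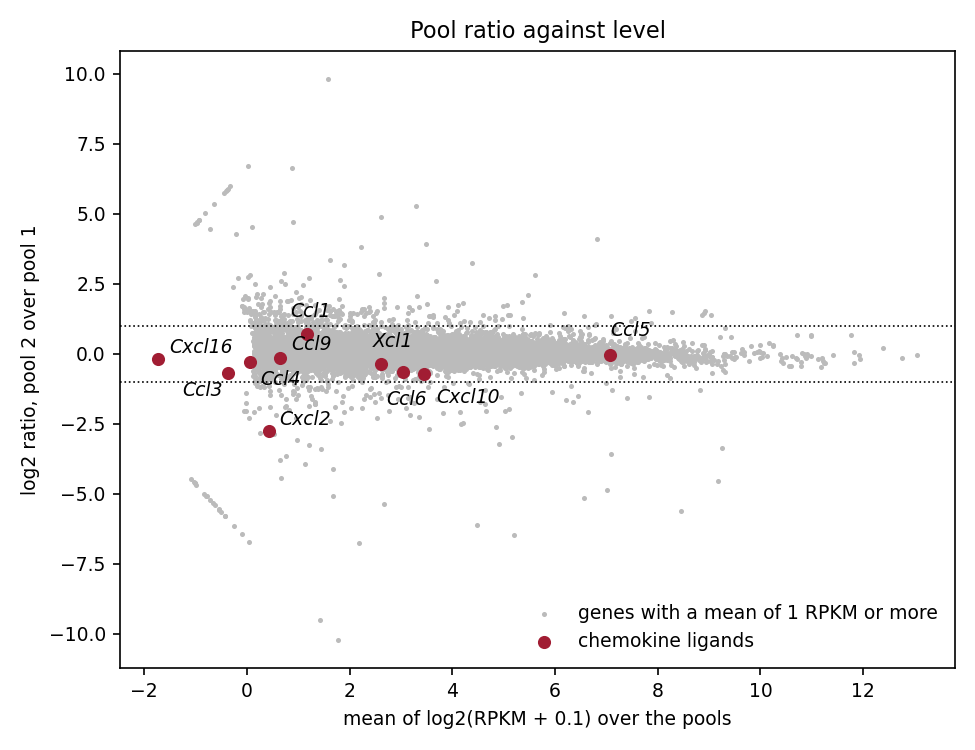
Log2 ratio of pool 2 over pool 1 against the mean level on the log2(RPKM + 0.1) scale, for genes with a mean of 1 RPKM or more in grey and the 10 chemokine ligands in red, with dotted lines at a 2-fold difference. Cxcl2 lies at -2.76, below the lower line, and Ccl1 is the only ligand above 0.

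By direction, 9 of the 10 ligands were higher in pool 1 by any amount, and 43.0% of all genes above 0 were. Of the 7 with a mean of 1 RPKM or more, 6 were, against 42.5% of all genes with such a mean. The median log2 ratio of the 10, pool 2 over pool 1, was -0.32, against 0.04 over all genes above 0. All 10 values come from the same pair of libraries, so they are not independent observations.

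**Figure D3:**
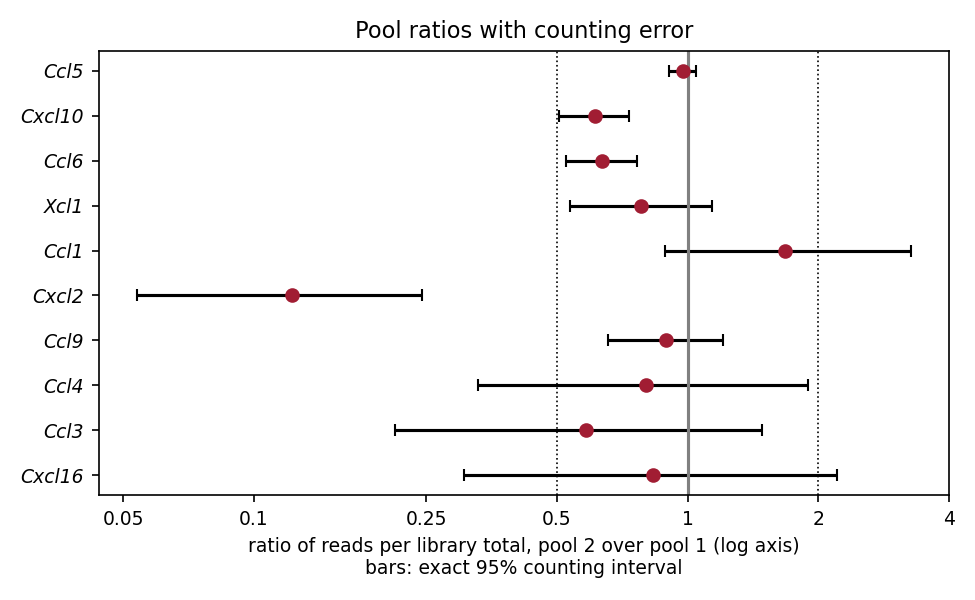
Ratio of pool 2 over pool 1 for each chemokine ligand on a log axis, with the 95% exact counting interval as a line. The intervals of Cxcl10, Ccl6 and Cxcl2 lie below 1, and those of the other 7 include 1.

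The difference in Cxcl2 stood beside large differences in immediate early genes and regulators of short-lived RNA. Of 15 immediate early and stress genes, 14 were 2-fold or more higher in pool 1, all but Egr2, with a median log2 ratio of -2.03. Fos was at 2441 RPKM in pool 1 and 49.6 RPKM in pool 2, Junb at 1969.6 and 189.7, Dusp1 at 692 and 23.9, Fosb at 569 and 15.8, and Egr1 at 348 and 3.81. Of 13 genes of chemokine processing and RNA control, 3 were 2-fold higher in pool 1 and none in pool 2. These were Zfp36, which encodes the AU-rich element binding protein tristetraprolin, at 2786 and 120.3 RPKM, Tnfaip3, a brake on NF-kB signalling, at 131 and 41.8, and Zc3h12a, an RNase that degrades inflammatory transcripts, at 22.5 and 7.33. Nfkbia, the NF-kB inhibitor induced by NF-kB itself, was at 408 and 226 RPKM, and Zfp36l1 at 319 and 235. Whether these genes had any part in the Cxcl2 values was not tested.

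Sequence around the ligand genes was read for the letters that such factors are known to bind. AU-rich elements in the 3′ untranslated region, which tristetraprolin binds, were searched as TATTTAT on the transcript strand, with overlapping matches counted. Cxcl2 held 7 in 734 bases, Ccl3, Ccl4 and Xcl1 held 1 each, and the other 6 ligands held none. Of 2682 annotated regions within 25% of the length of that of Cxcl2, 0.112% held as many and 18.9% held any. Part of the Cxcl2 array and the single site of Ccl3 are shown, with the motif in capitals.
Cxcl2 site: ctTATTTATTTATctatgTATTTATtta
Ccl3 site: acTATTTATtctgaaagacttcaggaca
The count describes the sequence of the RNA and shows no binding.

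Upstream sequence from the RefSeq promoter table (GRCm38.p6) was matched for 7 of the 10 ligands, but not for Ccl4, Ccl5 and Cxcl16. Up to 250 bases before the start were searched on both strands for NF-kB as GGGA, any 4 bases and CC, for AP-1 as TGANTCA, and for the interferon-stimulated response element as GAAA, any 2 bases and GAAA. The NF-kB letters were in 3 of 7 windows (Ccl1, Cxcl2 and Cxcl10) and in 17.6% of 32851 windows of all genes. AP-1 letters were in 2 of 7 (Ccl9 and Cxcl10), against 6.75% of windows, and the interferon element in 1 of 7 (Cxcl10), against 2.98%. Of the 3 ligands whose pools differed beyond counting error, Ccl6 held none of these letters in its window. The windows of the other 2, Cxcl2 (chr5:90903649-90903870, plus strand) and Cxcl10 (chr5:92348890-92349139, minus strand), are printed with the matches in capitals.
Cxcl2 upstream: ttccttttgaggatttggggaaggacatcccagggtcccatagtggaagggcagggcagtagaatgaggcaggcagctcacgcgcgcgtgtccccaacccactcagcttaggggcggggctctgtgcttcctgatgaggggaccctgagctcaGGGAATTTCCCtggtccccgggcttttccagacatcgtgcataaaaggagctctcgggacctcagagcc
Cxcl10 upstream: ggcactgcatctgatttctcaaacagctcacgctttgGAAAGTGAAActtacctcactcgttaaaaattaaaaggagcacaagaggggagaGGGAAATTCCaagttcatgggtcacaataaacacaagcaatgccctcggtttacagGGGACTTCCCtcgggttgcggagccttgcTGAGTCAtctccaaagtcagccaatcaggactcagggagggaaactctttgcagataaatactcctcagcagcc
In Cxcl2 the capitals cover 2 overlapping matches, 1 on each strand, at 97 and 96 bases before the start. In Cxcl10 they are the interferon element at 213 bases, NF-kB letters at 159 and 103 bases, and AP-1 letters at 74 bases before the start. A match in letters is no evidence of a bound factor. Among the regulators, Nfkb1 was at 185 and 200.6 RPKM, Rela at 103 and 92.8, and Irf1, an interferon regulatory factor, at 66.2 and 83.0 in pool 1 and pool 2. None of these 3 was 1.5-fold apart, and their part in the Cxcl10 values was not tested.

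Receptors of these ligands were also measured in the same pools. Of 7 receptors, 6 reached 1 RPKM in both pools, and Cxcr2 did in neither (0.163 RPKM in pool 1 and 0.464 in pool 2). Cxcr6, a marker of innate lymphoid cells and the receptor of Cxcl16, was at 484 RPKM in pool 1 and 729 RPKM in pool 2. Ccr8, the receptor of Ccl1, was at 53.7 and 32.8 RPKM. Cxcr3, the receptor of Cxcl10, had 16.9 RPKM in pool 1 and 34.0 RPKM in pool 2, and the ratio was 2.01 (1.81 to 2.23). Ccr1 was at 1.01 and 3.49, Ccr3 at 4.61 and 6.56, and Xcr1 at 2.04 and 2.26 RPKM. Of the 6 tested by fold, 5 were higher in pool 2 and only Ccr8 was higher in pool 1. Of all genes with a mean of 1 RPKM or more, 42.5% were higher in pool 1. Ccr1 and Cxcr3 were 2-fold or more higher in pool 2, as were 2.68% of all such genes. Cxcr3 lay at the 2-fold limit, and its counting interval of 1.81 to 2.23 reached below that limit. The receptor calls were not repeated under other scalings. Ccr1, Ccr3 and Cxcr2 are also expressed by myeloid cells, and the part of the neutrophil and eosinophil RNA, higher in sum in pool 2, was not tested.

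**Figure D4:**
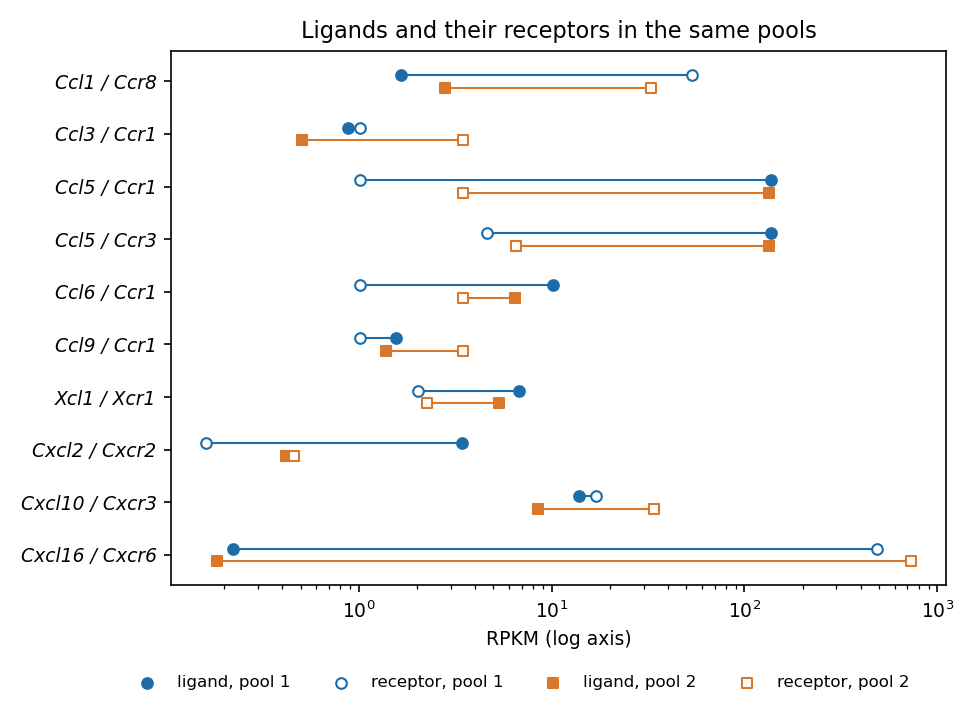
RPKM on a log axis of the ligand (filled) and the receptor (open) of 10 pairs, joined by a line for pool 1 (circles) and pool 2 (squares). The longest lines are those of Cxcl16 with Cxcr6, where the receptor is higher, and in Cxcl2 with Cxcr2 the ligand is higher in pool 1 alone.

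Across 10 ligand and receptor pairs, the receptor was higher per length in both pools for 4, the ligand was higher in both for 4, and the order differed between the pools for Ccl9 with Ccr1 and Cxcl2 with Cxcr2. Cxcr6 exceeded Cxcl16 2178-fold in pool 1 and 3933-fold in pool 2. Ccr8 exceeded Ccl1 32.3-fold and 11.7-fold, and Cxcr3 exceeded Cxcl10 1.22-fold and 4.02-fold. In these pairs the pools held more RNA of the receptor per length than of its ligand, which does not show that the same cells held both. Ccl5 lay on the other side, exceeding Ccr1 135-fold in pool 1 and 38.2-fold in pool 2, and Ccr3 29.7-fold and 20.3-fold. Xcl1 exceeded Xcr1 3.33-fold and 2.35-fold. Ccr1 exceeded Ccl3 1.16-fold in pool 1 and 6.84-fold in pool 2.

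Levels differed widely within a cluster. On chromosome 11, where 7 of the 10 genes lie, a stretch of 138.9 kb from Ccl5 to Ccl4 (chr11:83525778-83664683) holds 5 of them. Their means ran from 0.694 RPKM for Ccl3 to 135 RPKM for Ccl5. Genes at its sides were low, Heatr9 at 0.633 and 0.457 RPKM and Wfdc17 at 2.74 and 2.36, and the noncoding E230016K23Rik within it was at 0.0223 and 0. Ccl1 lies in a separate group with Ccl2, Ccl7, Ccl8, Ccl11 and Ccl12, and was the only gene of that group above 1 RPKM. Ccl2, a monocyte attractant, was at 0 RPKM in pool 1 and 0.125 RPKM in pool 2, Ccl8 at 0 and 0.0987, and Ccl7, Ccl11 and Ccl12 at 0 in both. On chromosome 5, Cxcl2 lies beside Cxcl1, Cxcl3, Cxcl5, Cxcl15, Ppbp and Pf4, of which Cxcl5 and Cxcl15 were at 0 and Ppbp at 0.229 and 0.280 RPKM.

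Among the 31 other chemokine ligands, 2 reached 1 RPKM in both pools and 13 were at 0 in both. The highest were Cx3cl1, the membrane-bound ligand of Cx3cr1, at 2.05 RPKM in pool 1 and 2.52 in pool 2, Pf4, a platelet chemokine, at 0.673 and 1.801, and Ccl25, a thymus and gut chemokine, at 1.16 and 1.07. Pf4 was 2-fold higher in pool 2, at a ratio of 2.68 (1.14 to 6.98) from 8 and 21 reads. All 6 platelet and megakaryocyte markers, Pf4 among them, were higher in pool 2, at sums of 1.78 and 6.12 RPKM, and their part in the Pf4 value was not tested. Of the genes at 0 in both pools, Ccl19, Ccl21a and Cxcl13 are ligands of lymphoid tissue stroma.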

How the data were processed

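RNA of sorted bone marrow ILC2 progenitors was measured in 2 libraries. The authors deposited RPKM for 27179 Entrez gene IDs in each. Tools listed in the submitters' processing notes are edgeR 3.8.2, edgeR 3.22.0, CASAVA 1.8.2 and featureCounts, with the build mm10 and no roles. Neither an aligner nor a strand setting is named in the sources used here. The labels give each library as a separate pool of mice, so the SD is over 2 pools.

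Library totals and whole reads were recovered from steps in RPKM (20216146 and 19834586 reads). A whole gene length of 20 to 20000 bases gave whole reads for 17227 of 17233 genes above 0. At a mean of 1 RPKM or more it did so for 11392 of 11394. With totals wrong by 1 in 1000, 5.6% of 500 such genes gave whole reads. Multiples of a length also give whole reads, so the length nearest the annotated RNA was used (within 9.30% for the ligands) and the reads are estimates. They sum to 108% and 107% of the totals. On simulated data the recovery of totals was tested. Reads were tested only with the true length of each gene given, which does not cover the choice of length. Ratios carry 95% exact (Clopper-Pearson) intervals, which compare libraries, not conditions. Levels and differences used log2(RPKM + 0.1), with a mean of 1 RPKM for tests by fold. No p-value was computed.

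The members and 16 further gene lists (178 genes in all, of which 2 were matched by ID to older symbols) were chosen with earlier results of these data known. Named genes are all members, receptors and atypical receptors, the 3 highest other ligands and those 2-fold apart, the 3 highest and 3 most different processing and immediate early genes, the 2 highest markers of each list cited and those at 0, and genes of the clusters. Other names (Adam10, Adam17, Nfkb1, Rela, Irf1, Id2, Ccl19, Ccl21a, Cxcl13) were chosen after their values were seen. Some planned genes and a sequence are not reported here. Alternatives were other pseudocounts, scalings, thresholds, folds and filters, and either library alone. Python 3.11.15, numpy 2.4.6, pandas 2.3.3, scipy 1.17.1 and biopython 1.88 were used.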

Additional observations from a re-analysis of the deposited data

How the results depend on the processing

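The count of ligands at 1 RPKM or more was 6 and ran from 4 with a threshold of 5 RPKM to 8 with 0.5 RPKM, with values rescaled to the same sum in each library, or in pool 1 alone. Leaving out a library gave 6 without replicate 1 and 8 without replicate 2. The median level of the 10 ligands, 0.92, became 1.497 with a pseudocount of 1, 1.93 with that rescaling, and 1.06 to 1.32 with either library left out. The count of ligands 2-fold apart, 1, became 0 when 1 RPKM was asked of both pools, 0 at 5 RPKM and 4 at a fold of 1.5. Cxcl2 drops out under the first and second of these because it is below 1 RPKM in pool 2 and below 5 RPKM on average. Its log2 ratio was -1.64 with a pseudocount of 1. Of 60 ratios of single ligands over 6 settings, that of Cxcl2 was the 1 that moved out of its counting interval, and none reversed. Scalings shifted the median of all genes by at most 0.05 on the log2 scale. No paired analysis was possible because the libraries form 1 group. Depth limits Ccl3, Ccl4, Cxcl16 and Ccl1, for which 8 to 28 reads a pool leave wide intervals.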

Other observations

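Atypical chemokine receptors bind chemokines without signalling through G proteins, and most remove or transport their ligands. Of 5, only Ccrl2, which presents the leukocyte attractant chemerin on the cell surface, reached 1 RPKM in both pools, at 13.3 RPKM in pool 1 and 7.65 RPKM in pool 2. Pool 1 was 1.74-fold higher. Ackr1, a carrier of CC and CXC ligands on endothelial and red cells, was at 0.470 RPKM in pool 1 and 1.48 RPKM in pool 2, from 11 and 34 reads. Ackr3, which takes up Cxcl12, was at 0.249 and 0.469 RPKM, and Ackr4, which takes up Ccl19 and Ccl21, at 0.0938 and 0.0239. Ackr2, which degrades inflammatory CC ligands including Ccl3, Ccl4 and Ccl5, was listed at 0 in both pools.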
